A study of Selenicereus undatus with 4 samples.

Results

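The genes described here are 7 unigenes of pitaya that were annotated as GIGANTEA (GI), as EARLY FLOWERING genes (ELF3 and ELF4) or as cyclic dof factors (CDF), out of 11051 unigenes in the deposited comparison of NL with L2. They were chosen by identifier, for annotations that in other plants belong between the evening clock and CONSTANS. All plants were 'Jindu No.1', a red-fleshed pitaya, at an age of 1 year, and the tissue was stem around the base of the thorns (the thorn seat, or areole) near the stem tip. NL plants received no supplementary light and did not flower, whereas L2 plants received supplementary light in the evening during the winter and were sampled 1 week after the flower bud stage. Both stages were grown in the same place with the same watering and fertilizer, and each stage had 3 libraries, each made from several mixed plants. The libraries of L0 and L1, the earlier stages under light, were not analysed here.

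In Arabidopsis, GI is a large evening protein that binds the light-sensing F-box protein FKF1, and together they direct CDF proteins to degradation in the light. CDF proteins are Dof zinc finger transcription factors that repress CONSTANS and FT with the TOPLESS co-repressor, so their removal in long days permits flowering. ELF3 and ELF4 form the evening complex with LUX, a Myb-like factor also named PCL1, and this complex represses clock and growth genes at night, GI among them. These roles are known from Arabidopsis, and none of them was measured in pitaya here.

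In L2, 6 of the 7 genes were lower than in NL and 1 was higher. GI, ELF3, ELF4 and 3 of the 4 CDF genes fell, and the remaining CDF gene, Unigene0029432, rose from almost no reads. The table holds only genes that the authors had already called different between NL and L2, so passing the test again on the same libraries is not independent evidence. With limma on log2(RPKM + 0.1), where RPKM is the reads per kilobase of unigene scaled to library size, 99.3% of all listed genes passed an adjusted p of 0.05. Of the listed genes, 36.3% were lower and 63.0% higher in L2, which is the background against which 6 falls and 1 rise stand. The median log2 change of the 6 falling genes was -3.41, beside -2.37 for all listed genes that were lower. The NL and L2 libraries of a gene had no value in the same range for all 7 genes, and this held for 97.6% of the listed genes (35.5% lower and 62.0% higher in L2). NL and L2 differ at once in the light given and in the presence of a developing bud, and these cannot be told apart. The methods of the study do not give the date on which either stage was sampled, so a difference in date was not tested. The hour of sampling is not given in the sources used here, so a shift in the daily rhythm of these clock genes and a change in their mean level cannot be told apart either.

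A total of 3860701 to 5269237 reads was counted per NL library and of 5803177 to 7533457 per L2 library, and 43.9% to 48.6% of them fell on listed genes. The tissue labels were checked with 3 marker lists, beside the 36.3% of all listed genes that fell and the 63% that rose. Of 42 genes of green stem tissue (chlorophyll a-b binding proteins, photosystem subunits and the small subunit of Rubisco), 38 fell, 0 rose and 4 did not pass. The summed RPKM of the 42 genes was 6476 to 7936 in the NL libraries and 1072 to 2331 in the L2 libraries. The Rubisco gene (Unigene0023440) did not pass, with RPKM of 12.5, 178 and 12.4 in NL and 7.99, 12.3 and 19.4 in L2. Unigene0017090, Unigene0022002 and Unigene0030975 did not pass either and were likewise high in NL replicate 2 alone. Among the falls, Unigene0006542, Unigene0058810 and Unigene0065923 were also high in that library, at 20.8, 17.5 and 15.0 RPKM. In the other NL libraries they were at 1.32 to 3.90 RPKM. Of 17 floral organ genes, of the MADS-box type except for 1 APETALA 2-like gene, 13 rose and 4 fell, with summed RPKM of 101 to 125 in NL and 334 to 439 in L2. The 2 floral genes without a read in NL were Unigene0003257 (AGL11) and Unigene0047380 (SEPALLATA 1). With DESeq2 and its size factors 8 of the 17 floral genes rose, and with DESeq2 and library totals 12. Of 27 genes found by the words cyclin or histone, among them a histone chaperone (Unigene0024144) and a cyclin-binding protein (Unigene0032630), 24 rose and 3 fell, with summed RPKM of 686 to 855 in NL and 1113 to 1822 in L2. Only 12 of these 24 rises passed in all alternatives, and 3 turned direction under an alternative. With edgeR and TMM 13 rose, and with DESeq2 and its size factors 12. With library totals, 24 rose with edgeR and 24 with DESeq2. The sampled L2 tissue thus held less RNA of green tissue genes and more of floral genes per read than NL. The number of rises among the dividing tissue genes depended on the scaling, whereas the 3 falls passed in all alternatives. These falls were a cyclin-B2-2-like gene (Unigene0028111, log2 change -1.66) and the histone H1 genes Unigene0002975 (-2.22) and Unigene0052782 (-1.25). TMM and the DESeq2 size factors assume that most genes were unchanged, which a table of called genes does not meet. In such bulk samples, fewer cells of a type and less RNA per cell cannot be told apart.

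**Figure D1:**
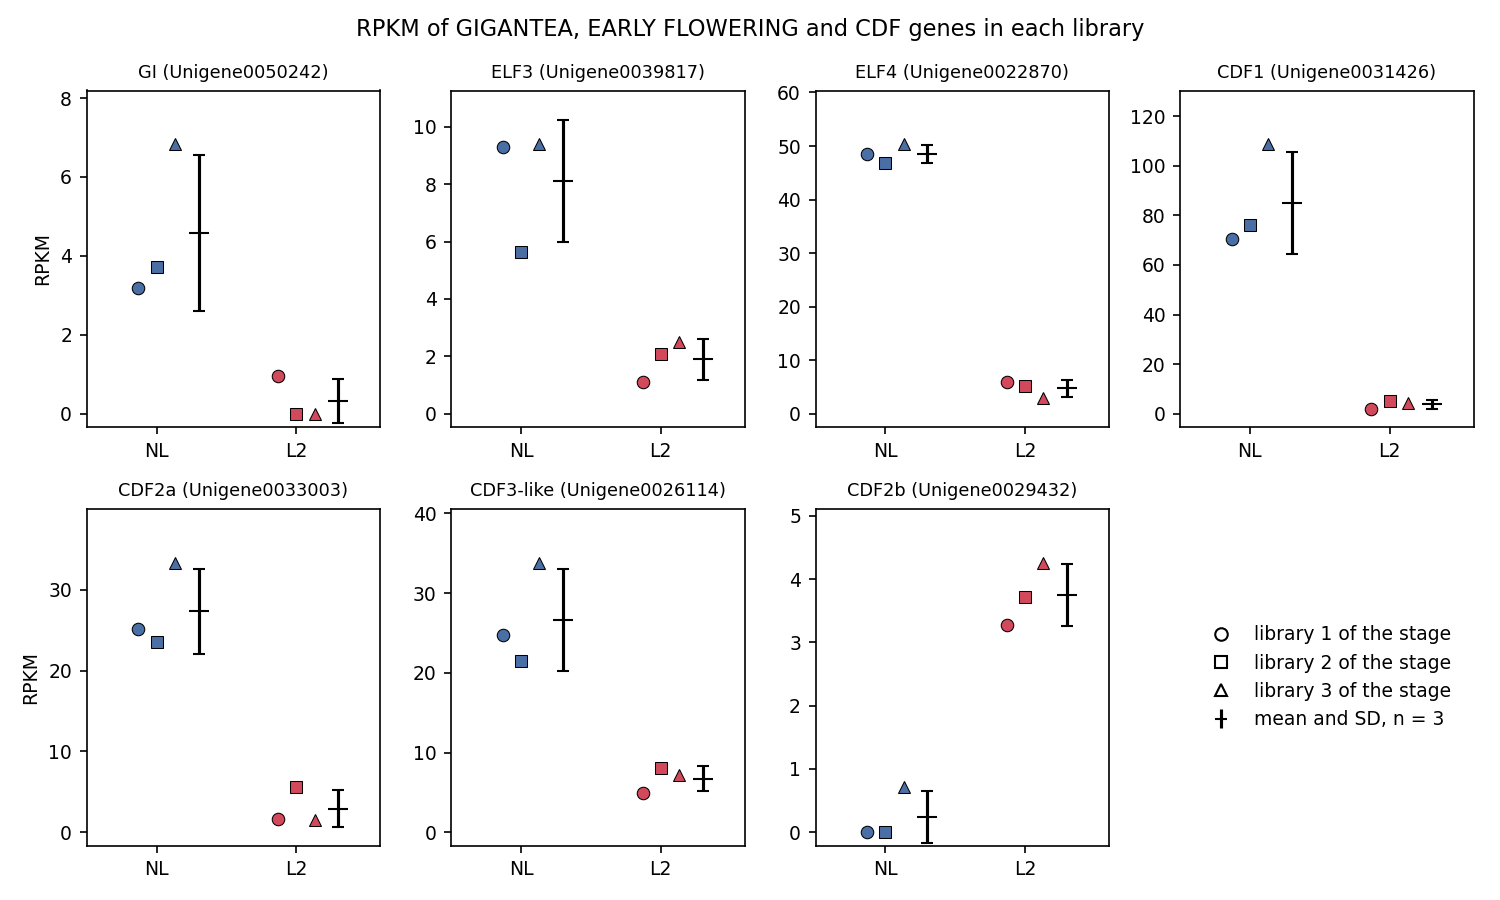
RPKM of each of the 7 genes (vertical axis, linear scale, a separate range per panel) in the 3 NL libraries (blue) and the 3 L2 libraries (red), with the symbol giving the library number and the bar giving the mean and SD. In every panel the libraries of the 2 stages are separated. Only CDF2b, in the last panel, is higher in L2, at 3.28 to 4.26 RPKM.

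GI (Unigene0050242) was represented by a unigene of only 278 nt and by few reads. Its RPKM was 3.17, 3.73 and 6.83 in NL replicates 1, 2 and 3, and 0.955, 0 and 0 in L2 replicates 1, 2 and 3. Every NL library was above every L2 library, and the only L2 library with GI reads was replicate 1. Behind these values stood 18 reads in NL and 2 reads in L2. The mean fell from 4.58 ± 1.97 to 0.318 ± 0.551 RPKM (SD, n = 3 libraries). The summed reads per library total were 12.6-fold lower in L2, with an exact 95% interval of 3.02 to 112 that covers counting error only. On the scale of log2(RPKM + 0.1) the change was -4.34 (SE 0.96, adjusted p = 0.00335). Over the other settings tried it ranged from -6.56 to -2.10, so the fall of GI held in direction while its size was poorly determined at this depth.

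ELF3 (Unigene0039817), the scaffold of the evening complex in Arabidopsis, was measured on a unigene of 2750 nt. Its name is uncertain, since the table describes it as EARLY FLOWERING 3 whereas the text of the study calls it an EARLY FLOWERING 4-like gene, and the name of the table is used here. Its RPKM in NL was 9.31, 5.65 and 9.39, and in L2 it was 1.11, 2.07 and 2.50. The lowest NL library, replicate 2, was still above the highest L2 library. The mean fell from 8.11 ± 2.13 to 1.89 ± 0.713 RPKM (SD, n = 3), a ratio of 4.28, on 312 and 96 reads. The log2 change was -2.08 (SE 0.43, adjusted p = 0.00257).

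ELF4 (Unigene0022870, EARLY FLOWERING 4-like), which in Arabidopsis binds ELF3 and promotes its nuclear localization, was the more abundant of the pair in NL. Its RPKM was 48.5, 46.9 and 50.3 in NL, the tightest group among the 7 genes. In L2 it was 6.01, 5.20 and 2.97. The mean fell from 48.6 ± 1.71 to 4.73 ± 1.57 RPKM (SD, n = 3), a ratio of 10.3, and the log2 change was -3.39 (SE 0.28, adjusted p = 5.87e-05). The fitted fall of ELF4 was thus larger than that of ELF3. The difference between these unigenes, whichever names apply, was examined as the ratio of ELF4 to ELF3 in each library, which does not depend on how a library is scaled. This ratio of RPKM was 5.21, 8.30 and 5.36 in NL and 5.41, 2.51 and 1.19 in L2. The ranges overlapped, since L2 replicate 1 lay within the range of NL. The mean log2 ratio was lower by 1.28 in L2, which did not pass an exact two-sided permutation test (p = 0.3, adjusted p = 0.48 over 8 ratios), a test whose smallest possible p with 3 against 3 libraries is 0.1.

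Of the 4 CDF genes, the most abundant in NL was Unigene0031426, described as cyclic dof factor 1 (CDF1) although its symbol in the table is CDF3. Its RPKM was 70.5, 76.3 and 109 in NL and 1.81, 5.25 and 4.16 in L2. The lowest NL library was far above the highest L2 library. The mean fell from 85.2 ± 20.6 to 3.74 ± 1.76 RPKM (SD, n = 3), a ratio of 22.7, on 2257 and 130 reads. The log2 change was -4.57 (SE 0.39, adjusted p = 6.14e-05), which was the largest fitted fall among the 7 genes. A larger fall was found for 502 other listed genes.

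Unigene0033003, described as cyclic dof factor 2 (CDF2a), had RPKM of 25.2, 23.5 and 33.3 in NL and 1.59, 5.60 and 1.57 in L2. L2 replicate 2 stood above the other L2 libraries and below all NL libraries. The mean fell from 27.3 ± 5.27 to 2.92 ± 2.32 RPKM (SD, n = 3), a ratio of 9.36, and the log2 change was -3.42 (SE 0.49, adjusted p = 0.000441).

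Unigene0026114, described as cyclic dof factor 3-like (CDF3-like), had a nearly equal level in NL, with RPKM of 24.8, 21.5 and 33.8. In L2 it kept more of this level, with RPKM of 4.97, 8.01 and 7.23. The libraries of the stages were again separate. The mean fell from 26.7 ± 6.39 to 6.74 ± 1.58 RPKM (SD, n = 3), a ratio of 3.96, and the log2 change was -1.97 (SE 0.27, adjusted p = 0.000375). This was the smallest fitted change of the 7 genes.

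Unigene0029432, a second gene described as cyclic dof factor 2 (CDF2b), went the other way. In NL it was listed at 0, 0 and 0.722 RPKM, and in L2 at 3.28, 3.72 and 4.26 RPKM. All 6 NL reads came from replicate 3, while the L2 libraries held 39, 34 and 39 reads. The mean rose from 0.241 ± 0.417 to 3.75 ± 0.488 RPKM (SD, n = 3). Summed reads per library total were 13.3-fold higher in L2, with an exact 95% interval of 5.93 to 37.1 for counting error. The log2 change was 4.25 (SE 0.86, adjusted p = 0.00219), and 5.26 without NL replicate 3. CDF2a, CDF2b and CDF3-like share the symbol CDF2 in the table. Where reads fitted more than 1 of these unigenes, the split between them is uncertain.

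**Figure D2:**
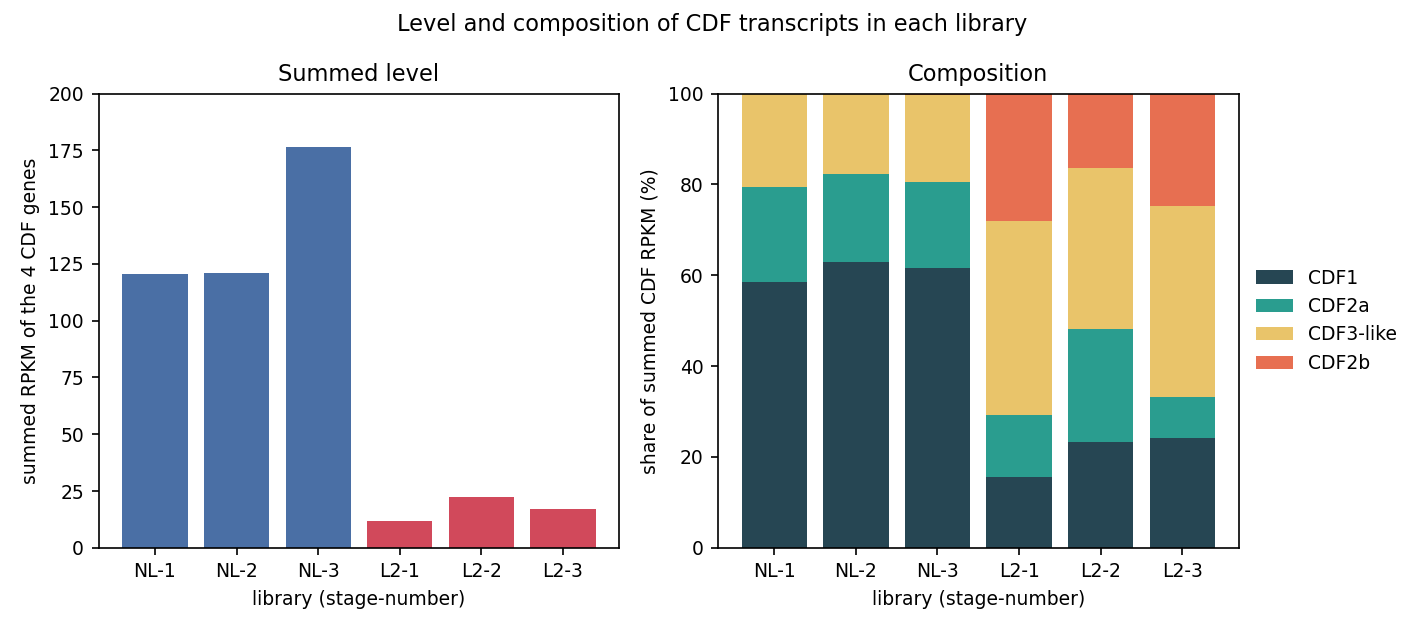
Left, summed RPKM of the 4 CDF genes in each library (bars from 0, NL blue, L2 red), with 120 to 177 in NL and 11.7 to 22.6 in L2. Right, the share of each CDF gene in that sum in percent, in which CDF1 takes 58.5% to 62.9% in NL and 15.6% to 24.2% in L2.

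The summed level of the 4 CDF genes fell along with its leading genes, and its composition changed. CDF genes that the authors did not call different between NL and L2 are absent from this sum. The summed RPKM of the 4 genes was 120, 121 and 177 in NL and 11.7, 22.6 and 17.2 in L2, or 139 ± 32.1 and 17.2 ± 5.46 (mean ± SD, n = 3), which is 8.13-fold lower in L2. CDF1 made up 61.0% of this sum on average in NL and 21.0% in L2. CDF3-like went from 19.1% to 40.0% and became the most abundant of the 4 genes in L2. The share of CDF2b went from 0.136% to 23.1%. For these 3 genes the shares in NL and L2 libraries did not overlap (exact two-sided permutation test, p = 0.1, the smallest possible, adjusted p = 0.2). CDF2a is the exception, since its share of 18.9% to 20.9% in NL lay within the 9.12% to 24.8% seen in L2 (exact permutation test, p = 0.5). The ratio of CDF2b to CDF2a, 2 genes with the same description, was 0, 0 and 0.0217 in NL and 2.07, 0.663 and 2.71 in L2. CDF2b therefore went from a small fraction of CDF2a to a comparable level.

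The level of GI relative to the CDF genes could not be settled at this depth. The ratio of the RPKM of GI to that of CDF1 was 0.0450, 0.0489 and 0.0628 in NL and 0.526, 0 and 0 in L2. The 2 GI reads of L2 replicate 1 put it above all NL libraries, whereas the other L2 libraries were at 0. The difference in the mean log2 ratio was 0.24 (exact permutation test, p = 1), and it was -1.34 without L2 replicate 1.

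Set in order of mean RPKM, the genes in NL ran from CDF1 through ELF4, CDF2a, CDF3-like, ELF3 and GI to CDF2b. Neighbours in this order were separate in their libraries except for CDF2a and CDF3-like, and ELF3 and GI, whose ranges overlapped. In L2 the order was CDF3-like, ELF4, CDF2b, CDF1, CDF2a, ELF3 and GI, and each gene overlapped the next down to ELF3. Only GI was below its neighbour in all libraries. The highest mean was 354 times the lowest in NL, where CDF2b rested on 6 reads, and 21.2 times the lowest in L2, where GI rested on 2 reads. Without CDF2b the other 6 genes spanned 18.6-fold in NL and 21.2-fold in L2.

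Libraries of the same stage also differed. NL replicate 3 was the highest NL library for all 7 genes. There GI stood at 1.49 times its stage mean, CDF1 at 1.28, CDF3-like at 1.27 and CDF2a at 1.22 times, and ELF4 at 1.04 times. The median listed gene in this library was at 1.01 times its stage mean. L2 replicate 1 was the lowest L2 library for CDF1, at 0.485 times the stage mean, and for ELF3 at 0.586 and CDF3-like at 0.738 times. ELF4 and GI were instead highest in that library, ELF4 at 1.27 times its stage mean and GI with the only 2 reads of the stage. Across the 6 libraries, Pearson's r of log2(RPKM + 0.1) was 0.992 between CDF1 and CDF3-like, 0.970 between CDF1 and CDF2a, and 0.979 between ELF3 and CDF3-like. With GI, r was 0.693 for ELF3 and 0.919 for ELF4. CDF2b had a negative r with each of the others, from -0.889 to -0.753. These coefficients describe 6 points that share the difference between the stages, and they are given without a test.

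The fall of the green tissue genes ran beside that of the clock genes. The values are also given per summed RPKM of the green tissue genes, an alternative chosen after seeing the data. This sum can fall through fewer cells or less RNA per cell, so it is not a measure of tissue content. Divided by the summed RPKM of the 42 green tissue genes in the same library, CDF1 was lower in L2 by a log2 difference of -2.41, CDF2a by -1.26 and ELF4 by -1.23, with NL and L2 libraries fully apart. CDF2b was higher by 6.41. ELF3 and CDF3-like were at 0.084 and 0.19 on this scale with overlapping libraries, so no fall relative to the summed green tissue genes was seen for either. GI was at -2.17 with overlapping libraries. Of the 42 green tissue genes, 4 had a larger fall than CDF1, 9 than ELF4, 9 than CDF2a, 27 than ELF3 and 30 than CDF3-like. The part of the floral and dividing tissue in these results was not tested.

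**Figure D3:**
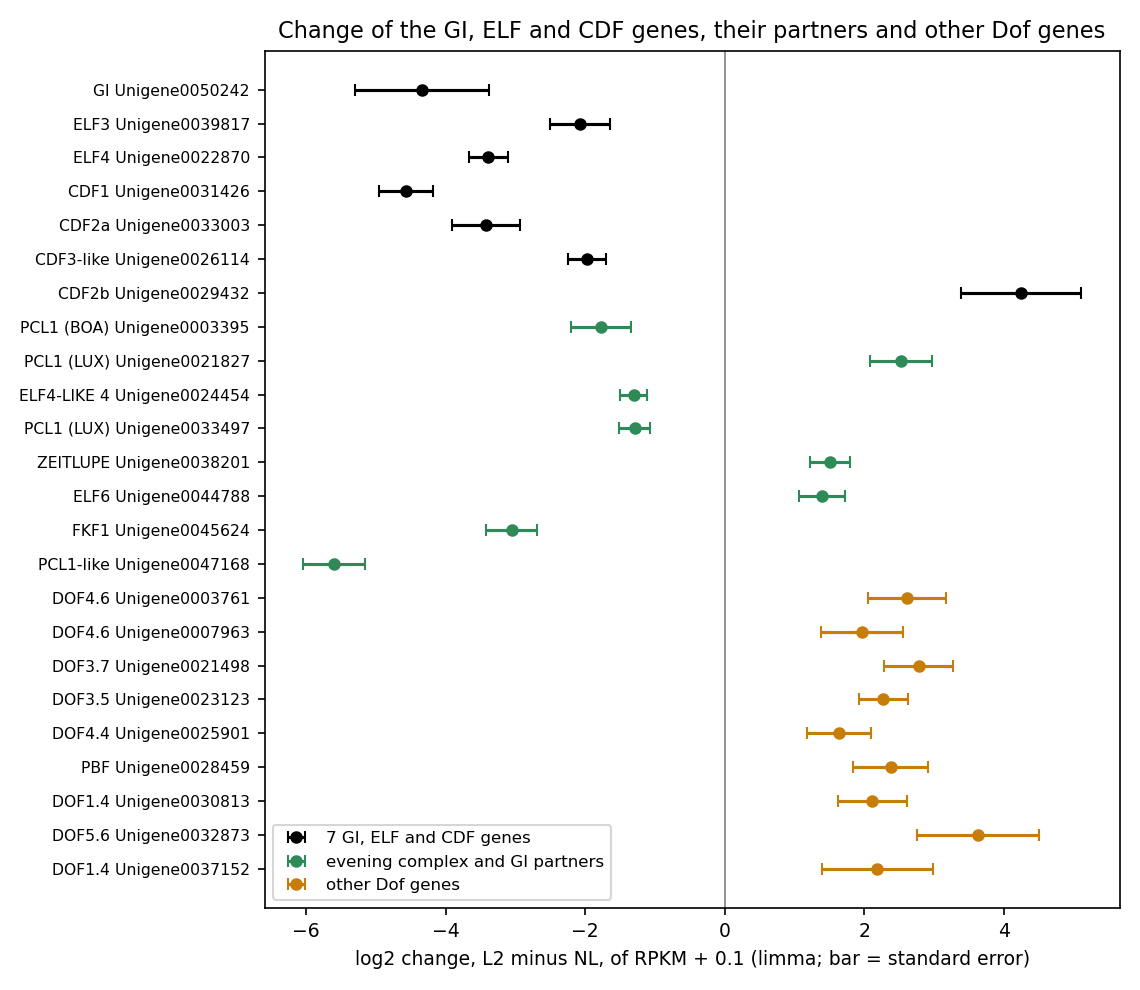
Log2 change of RPKM + 0.1 from NL to L2 (horizontal axis, limma, bar = standard error, n = 3 libraries per stage). Shown are the 7 genes (black), the 8 genes listed as evening complex and GI partners, ELF6 among them (green), and 9 other Dof genes (orange). The 6 falling genes lie between -4.57 and -1.97 while all 9 other Dof genes lie between 1.64 and 3.63, and the value of PCL1-like, which had no reads in L2, depends on the 0.1 added.

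The list of evening complex genes and GI partners held 8 further genes, of which 5 fell and 3 rose (median log2 change -1.30, beside 1.43 for all listed genes). The list was taken by words in the annotation, so the rises include ELF6 (Unigene0044788), which is not part of the evening complex. With edgeR and TMM, or with DESeq2 and its size factors, 5 fell and 1 rose. FKF1 (Unigene0045624), the F-box partner of GI, had RPKM of 119, 125 and 83.2 in NL and 7.84, 22.3 and 12.1 in L2. Its log2 change was -3.05 (SE 0.37, adjusted p = 0.000204). ZEITLUPE (Unigene0038201), the FKF1 relative that acts on clock proteins, had RPKM of 3.69, 3.51 and 5.45 in NL and 10.1, 13.0 and 13.1 in L2. Its rise of 1.51 on the log2 scale passed with limma (adjusted p = 0.00164). It did not pass with edgeR and TMM scaling (adjusted p = 0.0667) or with DESeq2 and its size factors (adjusted p = 0.257).

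The LUX-type genes of the evening complex were split in direction. A PCL1-like gene, Unigene0047168, had RPKM of 4.54, 4.15 and 5.65 in NL and no reads in L2. With 29 reads in NL, and 3 reads in all of L2 taken as the detection floor, it was at least 13.3-fold lower. Another gene described as PCL1, Unigene0021827, had RPKM of 1.12, 0.880 and 1.61 in NL and 7.11, 5.12 and 10.2 in L2, a log2 change of 2.52 (adjusted p = 0.00118). The remaining 2 PCL1 genes and ELF4-LIKE 4 fell by less, with log2 changes of -1.77, -1.29 and -1.30. ELF6, a histone demethylase that carries the EARLY FLOWERING name without being part of the evening complex, was at 1.40.

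Of 15 other clock genes (pseudo-response regulators and genes of the LHY, REVEILLE and LNK families), 14 fell and 1 rose. Their median log2 change was -2.45, and the shares over all listed genes were 36.3% lower and 63% higher. APRR5 (Unigene0045107), a repressor of the morning clock genes in Arabidopsis, had RPKM of 119, 138 and 110 in NL and 2.32, 6.64 and 6.73 in L2, a log2 change of -4.67 (adjusted p = 6.11e-05). A shorter APRR5 unigene, Unigene0048533, had RPKM of 3.78, 3.55 and 3.57 in NL and 0, 0.295 and 0.590 in L2. The 1 rise was Unigene0026108, described as APRR1 but with the symbol COL4, which had 3 reads in NL and 148 in L2. The pair of genes with the symbol LHY, chosen after their values were seen, are morning repressors of GI, ELF3 and ELF4 in Arabidopsis and fell as well. Their log2 changes were -2.31 for Unigene0036436 and -2.92 for Unigene0049229.

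The other listed members of the Dof family did the opposite of the leading CDF genes. Dof genes that the authors did not call different between NL and L2 are absent from the list. All 9 listed Dof genes outside the CDF group were higher in L2, with a median log2 change of 2.27 and a range of 1.64 to 3.63. DOF5.6 (Unigene0032873), which acts in vascular development in Arabidopsis, had RPKM of 0, 0.391 and 0.859 in NL and 2.60, 5.59 and 5.72 in L2, a log2 change of 3.63 (adjusted p = 0.00472). DOF3.7 (Unigene0021498, with the symbol DOF2.5), the name of a regulator of seed germination in Arabidopsis, had RPKM of 0.462, 0.542 and 0.596 in NL and 2.78, 5.77 and 4.68 in L2, a log2 change of 2.78 (adjusted p = 0.0012). With TMM scaling 6 of the 9 passed and with DESeq2 and its size factors 5, in each case in the same direction. CDF2b, at 4.25, thus moved in the direction of these Dof genes. The background of this count is the 63.0% of listed genes that rose.

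The co-repressor genes rose as well, as did 63% of all listed genes. TOPLESS (Unigene0006377) had RPKM of 16.0, 15.8 and 17.6 in NL and 30.0, 52.5 and 50.3 in L2, a log2 change of 1.38 (adjusted p = 0.00113). This call was lost with edgeR and TMM (adjusted p = 0.0584) and with DESeq2 and its size factors (adjusted p = 0.302). TOPLESS-RELATED 3 (Unigene0049463) rose by 2.02 on the log2 scale.

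Among the 19 CONSTANS-LIKE and B-box genes, 14 fell and 5 rose, with a median log2 change of -1.92. Over all listed genes, 36.3% fell and 63% rose. CONSTANS-LIKE 2 (Unigene0029386) had RPKM of 119, 116 and 168 in NL and 1.36, 9.10 and 3.41 in L2, a log2 change of -5.20 (adjusted p = 0.000151). B-box protein 32 (Unigene0019174) had RPKM of 11.6, 6.80 and 18.2 in NL and 0.498, 0 and 0 in L2. In the other direction, a gene described as B-box protein 20 (Unigene0028966) had RPKM of 0.432, 0.760 and 0 in NL and 13.5, 25.5 and 23.4 in L2, a log2 change of 5.82 (adjusted p = 0.000376). Another gene of that description, Unigene0028550, was at 3.40 (adjusted p = 0.0137), and its call was lost without L2 replicate 2 (adjusted p = 0.056) or L2 replicate 3 (adjusted p = 0.0561).

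The 4 relatives of FT and TFL1 were divided in direction, with 2 lower and 2 higher. The HEADING DATE 3A-like gene Unigene0019970 had RPKM of 17.6, 32.6 and 26.6 in NL, on 308 reads, and none in L2, which made it at least 146-fold lower with the same floor. The FT-like gene Unigene0000385 was covered by 2 reads in NL against 33 in L2, and its rise passed with limma (adjusted p = 0.0101). It did not pass with edgeR and TMM (adjusted p = 0.0552) or with DESeq2 and its size factors (adjusted p = 0.159). Of the pair of MOTHER OF FT genes, which act in seed germination in Arabidopsis, Unigene0028774 was at -2.42 and Unigene0032460 at 1.38 on the log2 scale, and the latter did not pass with edgeR and TMM (adjusted p = 0.183).

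**Figure D4:**
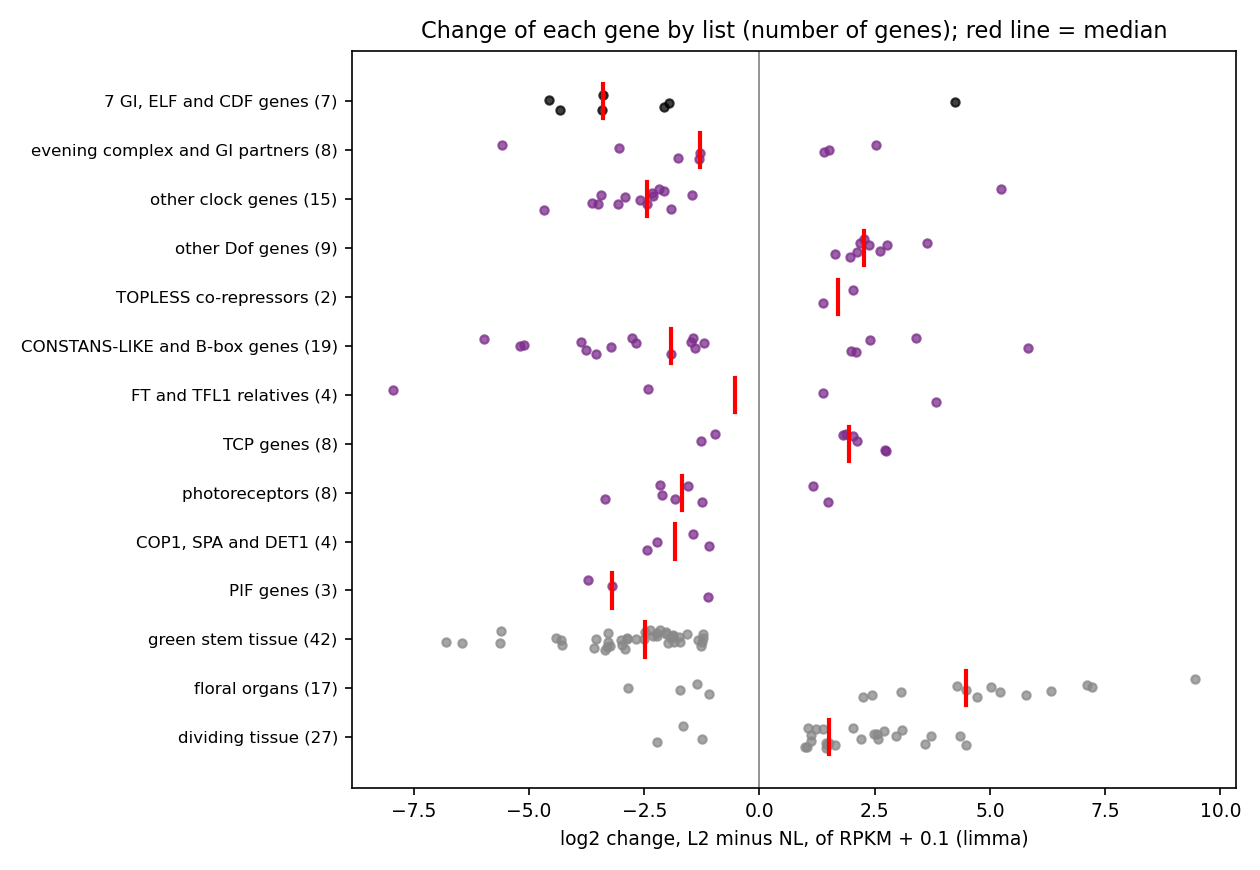
Log2 change of RPKM + 0.1 from NL to L2 (horizontal axis, limma) of every gene in each list, with the number of genes in parentheses and the median as a red line. The 7 genes (black) have a median of -3.39, the other Dof genes 2.27, the green tissue markers (grey) -2.49 and the floral markers 4.48.

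The listed genes whose pattern over the 6 libraries was most like each of the 7 genes were named by Pearson's r of log2(RPKM + 0.1), 3 per gene, among annotated genes. For CDF1 they were a phosphate transporter (Unigene0031610), the BTB/POZ and TAZ domain protein BT2 (Unigene0048805) and a mitochondrial serine hydroxymethyltransferase (Unigene0027695), each with r of 1.00. ELF4 was most like the chloroplast sigma factor binding protein SIB2 (Unigene0039072), followed by DXR (Unigene0027854) and fructose-1,6-bisphosphatase (Unigene0046079), enzymes of the chloroplast, with r of 0.999, 0.999 and 0.998. ELF3 was most like a GTPase Der (Unigene0038950), a transmembrane protein (Unigene0024036) and a MAP kinase (Unigene0053571), with r of 0.997, 0.996 and 0.996. GI was most like a chloroplast stromal processing peptidase (Unigene0048079), an IST1 homolog (Unigene0008996) and IQ-DOMAIN 1 (Unigene0026421), with r of 0.998, 0.997 and 0.996, which rest on the few reads of GI.

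For CDF3-like the nearest genes were a CCCH zinc finger gene (Unigene0002934, r = 0.999), a gene described as spermatogenesis-associated protein 20 (Unigene0040208, r = 0.999) and the cytochrome P450 gene CYP89A2 (Unigene0026922, r = 0.998). For CDF2a they were a retroelement-like gene (Unigene0007415), an rRNA methyltransferase gene (Unigene0034601) and the phosphofructokinase gene PFP-BETA1 (Unigene0040397), each with r of 0.998. For CDF2b they were a partial exodeoxyribonuclease subunit gene (Unigene0022370), an NDR1/HIN1-like gene (Unigene0027459) and a CASP-like gene (Unigene0027457), each with r of 0.999. With 6 libraries and a large stage difference many genes reached such values. An r of at least 0.95 was found with 1770 listed genes for CDF1, 1517 for CDF3-like, 1485 for ELF4, 1002 for CDF2a, 826 for ELF3, 536 for CDF2b and 209 for GI.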

How the data were processed

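RNA of stem tissue around the thorn seat was sequenced at 4 stages, of which NL and L2 (3 libraries each) were used here. The authors removed adapter-containing and low-quality reads and rRNA, assembled unigenes with Trinity and mapped reads with Bowtie2. The counting tool and the test are not given in the sources used here. Each library has an RPKM value with 4 decimals and each stage a mean RPKM, as deposited. The deposited mean counts per stage are not whole, while their 3-fold values are, so they have the form of expected counts although they are means of raw counts. A log2 ratio of mean RPKM and a p-value and FDR of the authors' own comparison were also deposited and were not used as results. The table was limited by the authors to 11051 genes (FDR up to 0.05, absolute log2 ratio from 1 upwards).

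Reads per library, library totals and unigene lengths (202 to 36165 nt) were worked out from RPKM and the stage means of counts. All 59302 values above 0 came out whole within 0.05 reads. No column with a value per library was left out. GEO lists 1 sample per stage, and the 3 library columns are its biological replicates per the methods of the study.

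Stages were compared with limma 3.58.1 (trend, R 4.3.3) on log2(RPKM + 0.1), two-sided, without a replicate block, with Benjamini-Hochberg adjustment over 11051 genes and a threshold of 0.05. Ratios within a library were compared by an exact permutation test over 6 libraries (scipy 1.17.1), adjusted over 8 ratios. Alternatives were pseudocounts of 1 and 0.01, a minimum RPKM of 1 in 3 or more libraries and upper quartile scaling. Others were the replicate block and leaving out each library. On the recovered reads, edgeR 4.0.16 (quasi-likelihood, TMM or library totals) and DESeq2 1.42.0 (its size factors or library totals) were run. The scripts were tested on simulated data. No batch is given in the labels.

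The members and lists were chosen with earlier results of these data known. Named are all 7 members, the 3 annotated genes most similar to each, and from each pathway list every gene up to 6, or otherwise the 2 largest rises and 2 largest falls at a mean RPKM of at least 1 in a stage. Exceptions are marked in the text or are given as log2 changes only. Lists were taken by words in the annotations, which are matches to other species.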

Additional observations from a re-analysis of the deposited data

How the results depend on the processing

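All 7 genes kept their direction and passed in each of the 15 alternatives fitted. The share of all listed genes that did so was not worked out. Falls among all listed genes moved little, from 3742 to 4041 over these alternatives. The listed genes that rose numbered 6967 (4007 fell), but 4268 with edgeR and TMM (4041 fell) and 2779 with DESeq2 size factors (4021 fell), and the list genes that rose numbered 30, 17 and 14. These scalings moved L2 against NL by -0.85 (TMM), -1.08 (DESeq2) and -0.50 (upper quartile) on the log2 scale, and they assume that most genes were unchanged, which the table of called genes does not meet. Photoreceptor and FT relatives that rose were 0 under either scaling. Per green tissue sum, an alternative chosen after seeing the data, 3 of the 7 genes were higher, as ELF3 (Unigene0039817) and CDF3-like (Unigene0026114) turned to 0.084 and 0.19. The log2 ratio of GI to CDF1 ran from -1.34 (without L2 replicate 1) to 1.10 over the libraries left out, and that of GI to the 4 CDF genes was -1.29, or 0.46 with recovered reads plus 1, since GI had 2 reads in L2 (the difference was not detectable at this depth). The lowest correlation of the named similar genes was 0.928 with Spearman's rho. The replicate numbers did not pair the libraries (same-number correlations 0.0353, 0.0225 and 0.0597), and with the replicate block 6 genes were lower and 1 higher as before. Of single named genes outside the 7, 34 values lost their call under an alternative with the direction kept.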

Other observations

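Photoreceptor genes were mostly lower in L2. Of 8 listed genes 6 fell and 2 rose, with a median log2 change of -1.69, beside 36.3% and 63% of all listed genes. A gene described as the ultraviolet-B receptor UVR8 (Unigene0040708, symbol CYT1) had RPKM of 52.5, 49.2 and 61.8 in NL and 3.40, 8.64 and 4.88 in L2, a log2 change of -3.35 (limma, adjusted p = 8.98e-05). Phototropin-2, a blue light receptor, fell by 2.15 on the log2 scale in Unigene0052094 (adjusted p = 4.12e-05), with 85.0 to 92.1 RPKM in NL and 18.9 to 20.6 in L2. The 2 rises, a phototropin-2 gene (Unigene0008688, 1.15) and a UVR8 gene (Unigene0038072, 1.49), did not pass with edgeR and TMM (adjusted p = 0.329 and 0.0976). The rise of Unigene0008688 was also lost without NL replicate 1 (adjusted p = 0.0752), NL replicate 3 (0.0504), L2 replicate 2 (0.0935) or L2 replicate 3 (0.0824).

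The 4 listed genes for COP1, a ubiquitin ligase that degrades CONSTANS in the dark, its partner SPA and the related repressor DET1 all fell. Their log2 changes were -1.11 and -1.43 for the COP1 genes (Unigene0038972 and Unigene0048144), -2.22 for the SPA1-RELATED 4 gene (Unigene0046165) and -2.44 for DET1 (Unigene0025670). The 3 genes described as PIF7, a phytochrome-interacting factor, were also lower, at -3.71 (Unigene0024729), -3.19 (Unigene0026196) and -1.11 (Unigene0048967), and the call of the last was lost without L2 replicate 1 (adjusted p = 0.0592) or L2 replicate 2 (0.0504). Of 8 TCP genes, a family of growth regulators, 2 fell and 6 rose (median 1.95), beside 36.3% and 63% of all listed genes. With edgeR and TMM 3 rose, and with DESeq2 and its size factors 1. TCP14 (Unigene0028812) had RPKM of 3.24, 3.50 and 1.23 in NL and 11.4, 16.0 and 26.0 in L2, a log2 change of 2.75 (adjusted p = 0.00114). TCP18 (Unigene0025734) was at 2.72 (adjusted p = 0.0266), a call lost with edgeR and TMM (0.0636) and with DESeq2 and its size factors (0.139). The call was also lost without NL replicate 3 (0.0687), L2 replicate 1 (0.106) or L2 replicate 3 (0.0965). The falls were those of TCP17 (Unigene0033763, -1.27) and a TCP20-like gene (Unigene0051925, -0.97). The green tissue genes fell beside these lists, and their part in the lists' values was not tested.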
